A study of Mus musculus with 50 samples.

Results

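Integrin and laminin genes were followed across 5 groups of mouse colon in a study of chemically induced colitis and its treatment with a small molecule. The genes were taken by symbol, as every gene named Itga or Itgb with a number or with the letters d, e, l, m, v or x, and every gene named Lama, Lamb or Lamc with a number. This rule found 39 of the 56691 genes in the deposited table: 18 integrin alpha chains, 9 integrin beta chains, 11 laminin chains and Itgb3bp. Itgb3bp answers to the wording of the rule but codes for a nuclear protein and not for an integrin chain, so it is described apart and counts below are over the other 38 genes. Of these 38 chains, 37 had enough reads to be tested. The exception was Itgad, the alpha D chain, which averaged between 2.7 and 3.6 counts in every group.

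Integrins are receptors that hold cells to the matrix around them or to other cells, and each is a pair of 1 alpha and 1 beta chain. The beta 2 chain pairs with the alpha chains L, M, X and D on white blood cells, the beta 7 chain pairs with alpha 4 and alpha E on gut-homing lymphocytes, and beta 1 pairs with many alpha chains on most cell types. Laminins are large proteins of the basement membrane, the thin matrix sheet beneath epithelium and around vessels, muscle and nerve, and each is built of 1 alpha, 1 beta and 1 gamma chain. In the gut, laminins holding alpha 5 or alpha 3 lie under the epithelium, where the alpha 6 beta 4 integrin binds them in hemidesmosomes.

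All libraries were made from poly(A) RNA of the colon of BALB/c mice, which the text of the series narrows to the distal colon. Sham mice formed the first group, and the other 4 groups had received TNBS (trinitrobenzene sulfonic acid, a hapten that provokes colitis) with either vehicle or A1007 at 10, 30 or 90 mpk, a unit given as in the labels. A1007, called YUQ-A1007 in the series, activates the aryl hydrocarbon receptor (AhR), through which small ligands turn genes on. Each group had 10 libraries with replicate numbers 1 to 10, all marked as batch 1, and the labels state no age, sex, route or time of sampling. The labels do not say in words that replicates are separate animals, so p-values measure the spread between these samples. The study's text names the molecular basis of the compound's effect in this colitis as its question, and integrins and laminins were not singled out by it.

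Library totals ran from 14373337 to 20446967 counts over the 50 libraries, and the deepest and the shallowest both belonged to the 90 mpk group. Epcam, an epithelial surface protein, was at 569 FPKM or more in every library, and the intestinal factor Cdx2 at 22.0 FPKM or more. FPKM is fragments per kilobase of exon scaled to the library total, so it can be compared between genes. Libraries that stood apart were 10 mpk replicate 6 and 30 mpk replicate 1, with Xist at 0.05 and 0.1 FPKM against at least 7.86 in the others, and vehicle replicate 6, whose 8 pancreatic acinar markers summed to 45250 CPM, counts scaled to the library total. Among the vehicle libraries the summed CPM of 10 neutrophil markers ran from 45.2 to 4978, with replicates 5 and 9 at the top, against 25.5 to 59.1 in sham libraries.

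RefSeq promoter windows, the 250 bases before a gene's start on GRCm38.p6, were held for 25 of the 39 genes, in 28 windows. Sequences of 3 are shown because these genes carry the contrasts described below: Itgam and its neighbour Itgax on chromosome 7 code for alpha chains of white blood cells with unlike values, and Lamb1 had the smallest p of all genes in a comparison between doses. Capitals mark GAGGAA or its reverse complement (a core of PU.1 sites, a factor of myeloid cells) in Itgam at chr7:128062390-128062639, TGANTCA (the AP-1 motif) in Itgax at chr7:128129300-128129549 and GCGTG or its reverse complement (the core of AhR response elements) in Lamb1 at chr12:31265043-31265292, all on the plus strand.
Itgam: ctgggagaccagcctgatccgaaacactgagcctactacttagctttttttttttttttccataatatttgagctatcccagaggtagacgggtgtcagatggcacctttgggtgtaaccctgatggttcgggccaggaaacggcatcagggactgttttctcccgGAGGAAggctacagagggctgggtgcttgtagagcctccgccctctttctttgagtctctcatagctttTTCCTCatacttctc
Itgax: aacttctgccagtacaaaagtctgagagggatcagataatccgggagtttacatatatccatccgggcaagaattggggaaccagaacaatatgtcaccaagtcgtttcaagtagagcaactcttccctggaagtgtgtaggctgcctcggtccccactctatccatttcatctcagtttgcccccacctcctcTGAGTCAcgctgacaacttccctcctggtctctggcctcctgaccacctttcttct
Lamb1: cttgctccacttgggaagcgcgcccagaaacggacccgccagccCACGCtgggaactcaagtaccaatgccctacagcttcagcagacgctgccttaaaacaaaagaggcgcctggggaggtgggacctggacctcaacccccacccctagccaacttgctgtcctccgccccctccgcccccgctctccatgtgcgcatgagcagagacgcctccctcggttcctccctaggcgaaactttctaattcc
The GAGGAA core lay in 14 of the 28 windows, in 2 places in that of Itgam and not in that of Itgax, against 23.3% of all 32851 windows in the RefSeq table. TGANTCA was found in 1 of the 28, that of Itgax, against 6.75% of all windows. The AhR core GCGTG lay in 6 of the 28 windows (Itga2, Itga9, Itgax, Itgb5, Lamb1 and Lamb3), against 28.2% of all windows. GGGCGG, the box of SP1, was in 9 of the 28 windows against 32.7%. Both strands were searched, the 4 motifs are counted separately, and a match says only that these letters are present.

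In sham colon Itgb1, the common beta chain, had the highest level of the set at 137.5 ± 6.04 FPKM (SD, n = 10). Itga6, the laminin-binding alpha 6 chain of epithelium, followed at 29.3 ± 1.86 FPKM. Itgb4 (17.4 ± 1.2), its hemidesmosome partner, Itga3 (16.4 ± 0.705) and Lamb3 (16.3 ± 1.56 FPKM) came next, with overlapping ranges over the sham libraries. The white blood cell chains were low in sham, with Itgb2 at 4.39 ± 0.803, Itgax at 2.77 ± 0.246 and Itgam at 0.963 ± 0.146 FPKM. Lama1, an alpha chain best known from embryonic basement membrane and kidney, averaged 0.115 ± 0.0445 FPKM, and of the 38 chains only Itgad was lower, at 0.043 ± 0.0414 FPKM.

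TNBS raised a large part of the set. Of the 37 tested chains, 22 rose and 1, Itga6, fell in vehicle against sham mice, at a Benjamini-Hochberg adjusted p under 0.05 in edgeR's quasi-likelihood test over all 17928 genes. Of all genes tested, 31.7% were called in this comparison, 18.2% as higher and 13.5% as lower, against 62.2% of the chains. Integrins accounted for 14 of the rises among 26 tested, and laminins for 8 among 11. The median log2 fold change was 0.47 over the 37 chains, 0.30 over integrins and 0.87 over laminins, against 0.02 over all genes. All vehicle libraries lay above all sham libraries for 10 chains (Itga5, Itgam, Itgb3, Itgb5, Lama1, Lama2, Lama4, Lama5, Lamb1 and Lamc1), and such a separation was seen upward for 2.99% of all genes.

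**Figure D1:**
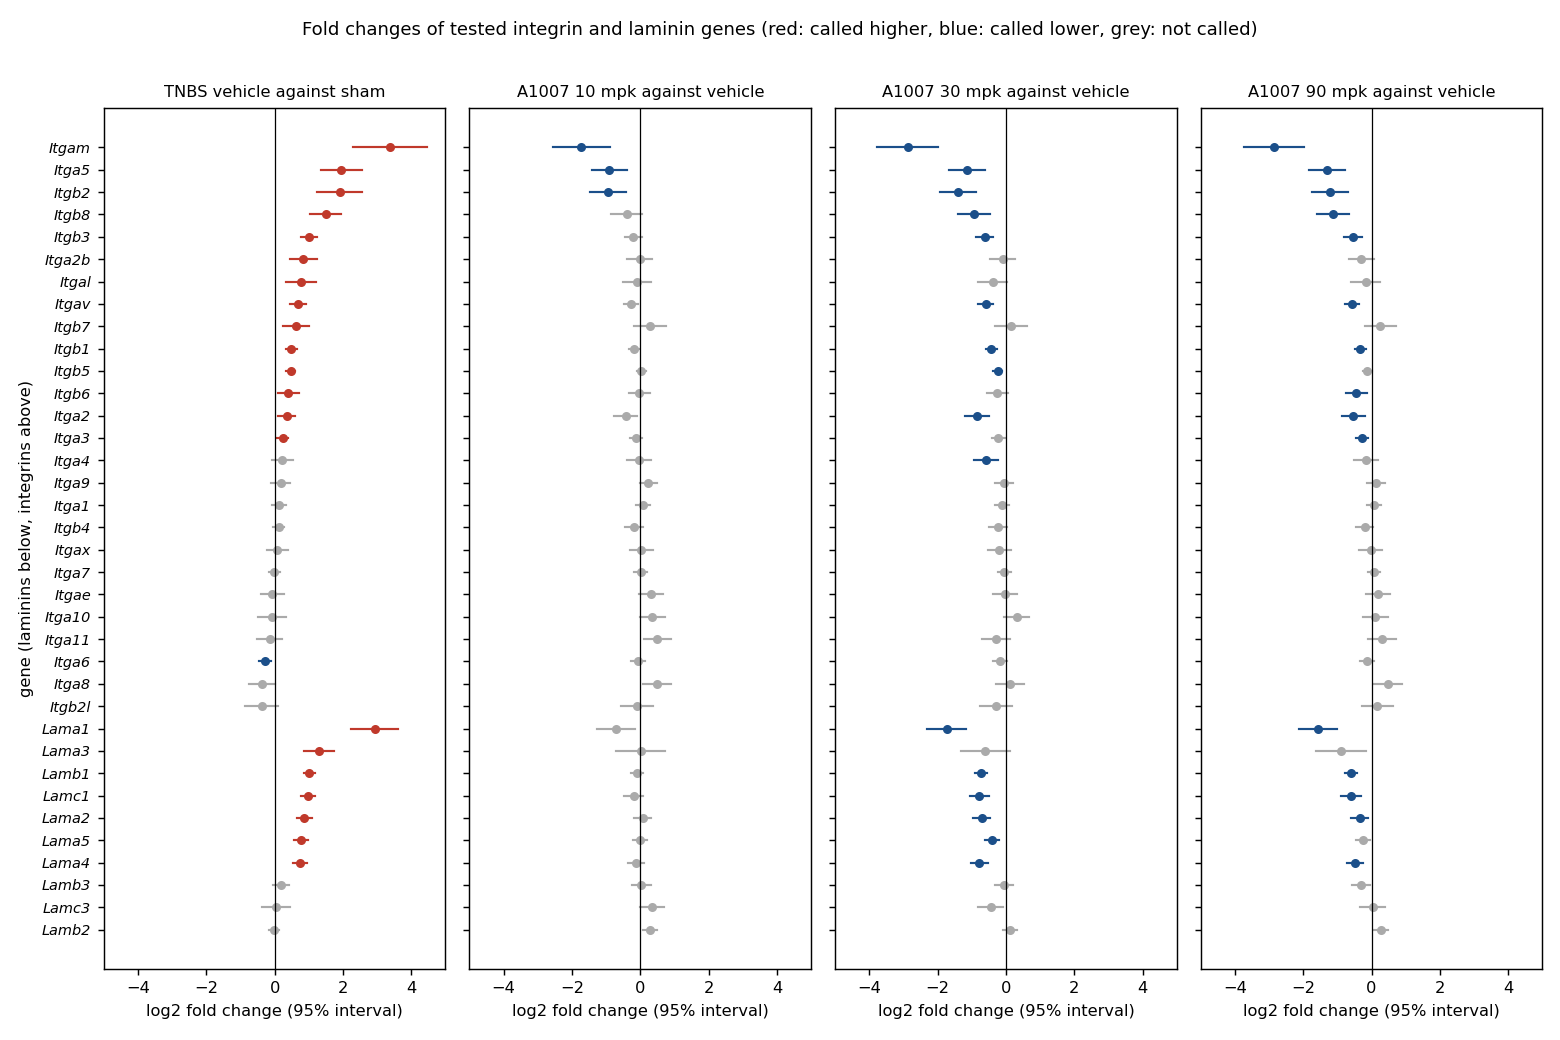
Log2 fold changes (x axis) with 95% intervals of tested chains (rows) in vehicle against sham and in each A1007 dose against vehicle, from edgeR; red marks genes called higher, blue called lower and grey not called. In the first panel Itga6 is the 1 blue gene and Itgam, at 3.37, lies farthest right; no gene is red in the 3 panels on the right, and the vehicle mice enter all 4 panels.

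The beta 2 family of white blood cells held both the largest rise of the set and chains that passed no test. Itgam (ENSMUSG00000030786, chr7:127661812-127717663 on GRCm39, plus strand) codes for alpha M (CD11b), the chain of the Mac-1 receptor of neutrophils and macrophages, and ran from 0.79 through a median of 0.96 to 1.26 FPKM in sham libraries. In vehicle libraries it ran from 1.87 through 6.25 to 33.2 FPKM, with replicates 5 and 9 highest and no overlap with sham. The log2 fold change was 3.37 (SE 0.52), or 10.3-fold, with an adjusted p of 8.49e-05.

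Itgb2 codes for the shared beta 2 chain (CD18). It ran from 3.44 through 4.21 to 6.05 FPKM in sham and from 5.08 through 14 to 47.5 FPKM in vehicle libraries, and 9 of 10 vehicle libraries were above all sham libraries. It rose 3.74-fold (log2 1.904, SE 0.31, adjusted p = 0.000138). Itgal, the alpha L chain of LFA-1 on lymphocytes, ran from 0.97 through 1.25 to 2.52 FPKM in sham and from 1.25 through 2.3 to 4.63 in vehicle libraries, a 1.704-fold rise with overlapping groups (adjusted p = 0.00719).

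Itgax, the alpha X chain (CD11c) carried by dendritic cells and macrophages, was not called. It averaged 2.77 ± 0.246 FPKM in sham and 2.95 ± 0.962 in vehicle mice (n = 10 each), and the 95% interval of its log2 fold change, from -0.22 to 0.38, lay apart from that of Itgam, from 2.29 to 4.45. The difference between these genes was not itself tested. Itgb2l, a beta 2-like gene at or below 0.70 FPKM in sham and vehicle libraries, was not called either (log2 fold change -0.38, adjusted p = 0.22).

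**Figure D2:**
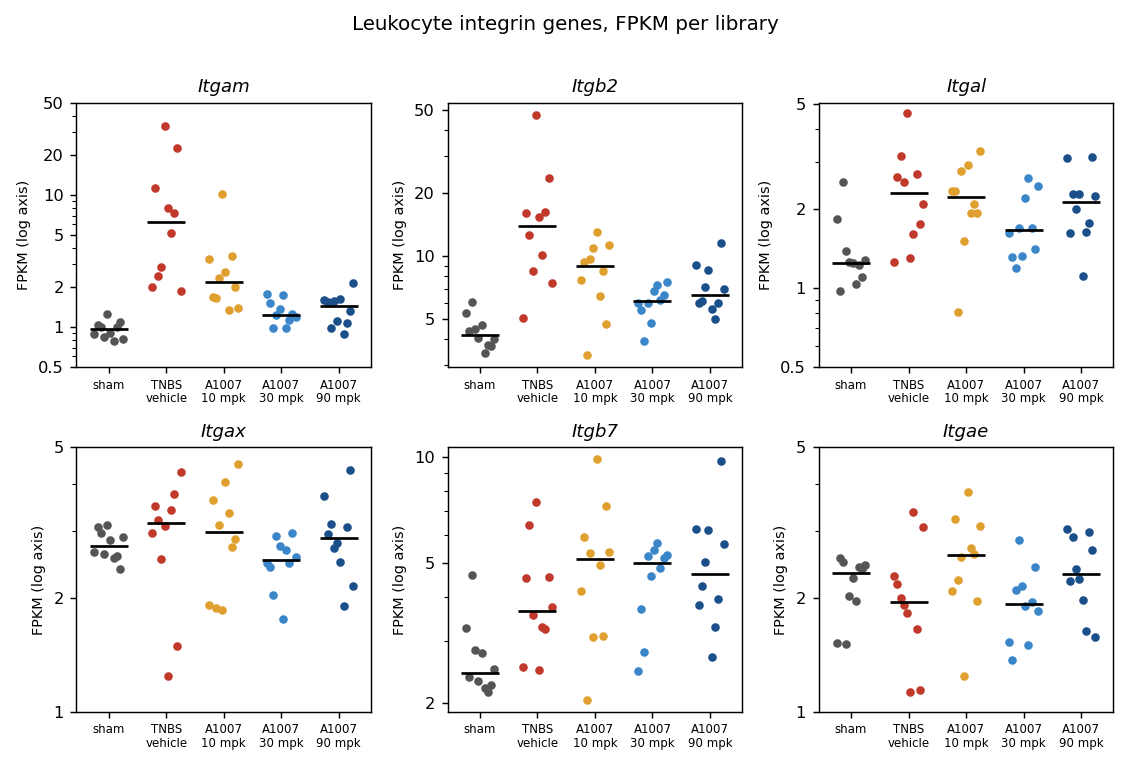
FPKM of 6 integrin genes of white blood cells (y axis, log scale) in each of the 50 libraries by group (x axis); points are libraries and bars are group medians. Itgam spans 1.87 to 33.2 FPKM in vehicle libraries and 0.98 to 1.77 at 30 mpk, while Itgax stays between 1.24 and 4.52 in all groups.

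All 10 neutrophil markers (S100a8, Csf3r and others) and all 12 monocyte and macrophage markers were higher in vehicle than in sham mice, with no marker of either list at 0 in all libraries of a group. The summed macrophage markers ran from 595 to 1652 CPM in vehicle against 332 to 488 in sham libraries. The part of these cells in the rise of Itgam and Itgb2 was not tested. In whole colon, fewer cells of a type and less RNA per cell cannot be told apart, which holds for every difference described here.

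Chains of gut-homing lymphocytes moved less. Itgb7, the beta 7 chain, ran from 2.14 through 2.44 to 4.62 FPKM in sham and from 2.48 through 3.65 to 7.43 in vehicle libraries, and rose 1.54-fold (adjusted p = 0.0141), although only 2 vehicle libraries were above the highest sham library. Its partners Itga4 (log2 fold change 0.23, adjusted p = 0.24) and Itgae (-0.07, adjusted p = 0.75) were not called. Of 12 T and NK cell markers 2 were called higher. Reads of Itgae could not be told from those of Haspin, a gene on the opposite strand inside it, if counting ignored the strand, and the labels and headers state no strand setting. The same limit holds for Itga7, which overlaps Mettl7b, and for Lamb3, which overlaps Hsd11b1, none of which bears a call in this comparison.

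Several chains of receptors for matrix proteins were called higher, while Itga8, which with beta 1 also binds fibronectin, was not (1.56 ± 0.238 FPKM in sham and 1.21 ± 0.515 in vehicle mice, adjusted p = 0.12). Itga5 (ENSMUSG00000000555, chr15:103252713-103275190 on GRCm39, minus strand), which with beta 1 forms the fibronectin receptor, ran from 6.60 through 7.85 to 8.47 FPKM in sham and from 12.9 through 22.7 to 61.8 in vehicle libraries, with no overlap and a 3.86-fold rise (log2 1.95, SE 0.28, adjusted p = 4.39e-05). Itgav, the alpha chain of vitronectin and TGF-beta binding receptors, ran from 6.19 through 7.30 to 8.78 FPKM in sham and from 7.62 through 11.3 to 17.5 in vehicle libraries, a 1.61-fold rise (adjusted p = 0.000201). Among its beta partners, Itgb3 ran from 2.34 through 2.69 to 3.27 in sham and from 3.83 through 5.37 to 8.32 FPKM in vehicle libraries, so that every vehicle library exceeded every sham library (2.01-fold, adjusted p = 1.35e-06).

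Itgb8, whose product with alpha V binds latent TGF-beta, ran from 0.36 through 0.53 to 0.62 FPKM in sham and from 0.56 through 1.23 to 2.65 FPKM in vehicle libraries. It rose 2.82-fold (log2 1.49, SE 0.21, adjusted p = 2.87e-05), and 9 of 10 vehicle libraries were above all sham libraries. Itgb5 rose 1.39-fold within a narrow spread, from 12.8 ± 0.984 to 17.7 ± 0.98 FPKM (adjusted p = 1.12e-05), with no overlap. Itgb1 rose from 137.5 ± 6.04 to 193 ± 31.5 FPKM (1.41-fold, adjusted p = 4.11e-05). Itga2b, the platelet alpha chain that pairs with beta 3, rose from 0.338 ± 0.0735 to 0.603 ± 0.21 FPKM (1.80-fold, adjusted p = 0.00165). The 8 platelet markers summed to 10.4 to 88.7 CPM in vehicle and 2.85 to 6.52 in sham libraries. Of the 8, 3 had enough reads to be tested and 2 were called higher. Markers this low in sham may have entered the test only through the TNBS groups, so these calls are no separate support. The part of platelets in the values of Itga2b and Itgb3 was not tested.

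Epithelial integrins moved little. Itga6 was the 1 chain that fell, from 29.3 ± 1.86 to 24.4 ± 5.09 FPKM (log2 -0.27, SE 0.08, adjusted p = 0.0192), with 8 vehicle libraries below and 1 above the sham range. Itgb4, with which it forms the hemidesmosome receptor, was not called (log2 0.12, 95% interval -0.05 to 0.29). The collagen receptor chain Itga2 ran from 6.40 through 9.46 to 10.3 FPKM in sham and from 7.42 through 11.02 to 16.04 in vehicle libraries and rose 1.28-fold (adjusted p = 0.0276), and Itga3 rose 1.18-fold (adjusted p = 0.0255). Itgb6, an epithelial partner of alpha V, rose 1.32-fold at an adjusted p of 0.0444. The calls of Itgb6 and Itga2 were thin, lost in 17 and 8 of 28 alternative settings, while that of Itga3 was lost in 2. Of 12 epithelial markers 2 were lower and none higher.

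**Figure D3:**
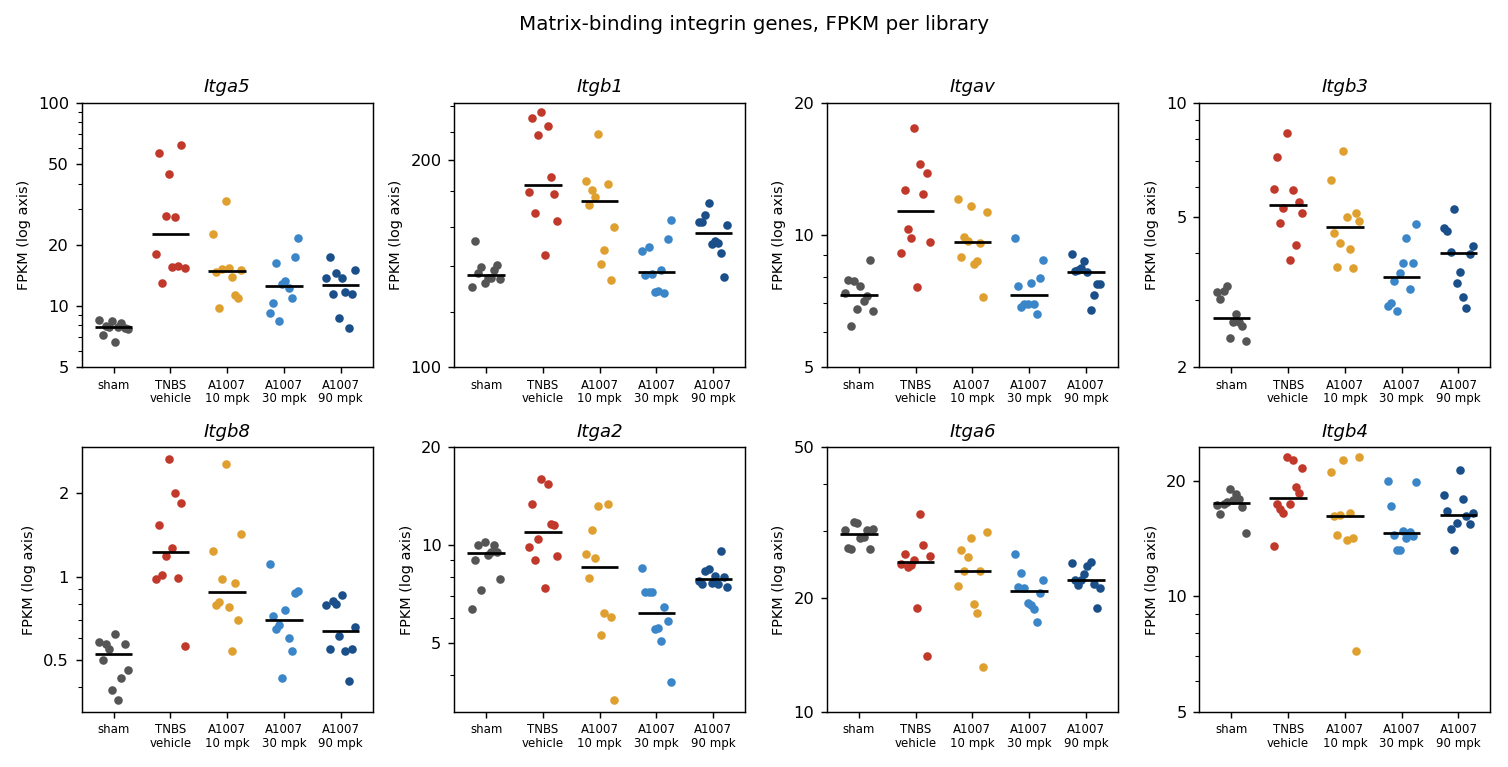
FPKM of 8 integrin genes that bind matrix proteins (y axis, log scale) in each library by group (x axis); points are libraries and bars are group medians. Itga5 reaches 61.8 FPKM in vehicle libraries and 8.47 at most in sham, whereas Itga6 is below the sham range in all 30 and 90 mpk libraries.

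Laminin chains rose together, 8 of 11 in all. Lamb1 (ENSMUSG00000002900, chr12:31315233-31379643 on GRCm39, plus strand), the beta 1 chain shared by laminins of vessels, muscle and mesenchyme, ran from 6.38 through 7.80 to 9.08 FPKM in sham and from 13.1 through 15.4 to 21.1 in vehicle libraries, with no overlap. It doubled (2.02-fold, log2 1.01, SE 0.08, adjusted p = 1.82e-08) and held rank 15 of 17928 genes by p. Lamc1, the gamma 1 chain found in most laminins, ran from 9.54 through 11.4 to 13.3 FPKM in sham and from 17.1 through 20.4 to 31.5 in vehicle libraries (1.95-fold, adjusted p = 4.86e-07).

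The alpha chains that join them rose as well. Lama4, of vessel walls, ran from 3.28 through 4.12 to 5.60 FPKM in sham and from 5.75 through 6.41 to 10.7 in vehicle libraries (1.67-fold, adjusted p = 1.83e-05). Lama5, of epithelial and vascular basement membrane, ran from 1.69 through 2.07 to 2.84 and from 2.96 through 3.50 to 4.91 FPKM (1.703-fold, adjusted p = 1.23e-05). Lama2, of muscle and nerve, ran from 0.83 through 1.26 to 1.43 and from 1.49 through 2.36 to 2.50 FPKM (1.83-fold, adjusted p = 2.76e-06). In none of these 3 did a vehicle library reach down into the sham range. Lama1 rose most of the laminins by fold, from 0.115 ± 0.0445 to 0.864 ± 0.486 FPKM (7.63-fold, log2 2.93, SE 0.33, adjusted p = 2.21e-06), at a level that reached at most 1.68 FPKM.

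Lama3 and Lamb3, which encode chains of epithelial laminin, differed in their calls. Lama3 ran from 1.95 through 2.65 to 3.51 FPKM in sham and from 2.48 through 6.41 to 12.1 in vehicle libraries (2.46-fold, adjusted p = 0.000116). Of the 10 vehicle libraries 9 were above the sham range, the closest at 3.52 FPKM against a sham highest of 3.51. Lamb3 was not called, at 16.3 ± 1.56 and 18.3 ± 3.88 FPKM (log2 0.19, 95% interval -0.05 to 0.42), and whether it differed from Lama3 was not tested. The 7 squamous markers summed to 4.97 to 97.6 CPM in vehicle against 0.685 to 2.37 in sham libraries, and Krt6a was at 0 in all sham libraries. Of the 7, 3 had enough reads to be tested and all 3 were called higher. Genes this low in sham may have entered the test only through the TNBS groups, so these calls are no separate support. The part of squamous tissue in the values of Lama3 and Lamb3 was not tested.

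Lamb2 (log2 -0.02) and Lamc3 (0.03) were not called, with 95% intervals of -0.17 to 0.12 and -0.37 to 0.44. Fibroblast and endothelial markers were mostly higher in vehicle mice too, but smooth muscle and enteric glia markers were not. Of 9 fibroblast markers 8 were higher, with sums of 3942 to 9303 CPM in vehicle and 1082 to 1849 in sham libraries, and of 10 endothelial markers 8 were higher (352 to 591 against 207 to 366 CPM). Of 10 smooth muscle markers 0 were called, and of 6 enteric glia markers 1 was higher and 2 were lower. The part of any of these cells in the laminin values was not tested.

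**Figure D4:**
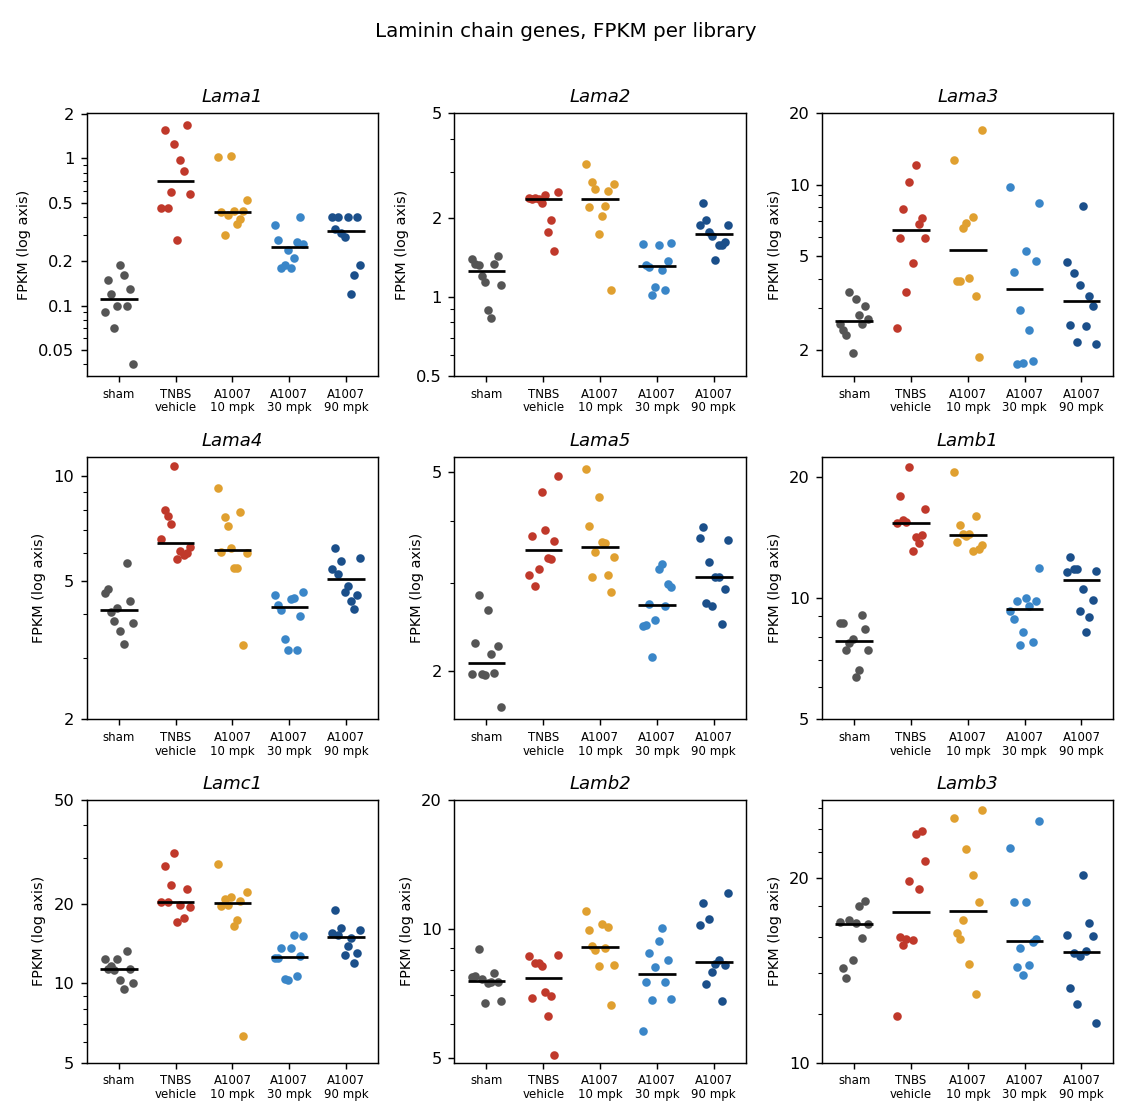
FPKM of 9 laminin chain genes (y axis, log scale) in each library by group (x axis); points are libraries and bars are group medians. Lamb1 lies between 13.1 and 21.1 FPKM in vehicle libraries, between 13.1 and 20.6 at 10 mpk and between 7.63 and 12.6 at 30 and 90 mpk.

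Genes that work with integrins and laminins were read from 4 lists. Of the 14 tested matrix ligands of integrins 13 rose in vehicle mice, with a median log2 fold change of 1.52, and those with the smallest p were Fbn1 (fibrillin, log2 1.89), Fn1 (fibronectin, the ligand of alpha 5 beta 1, 2.22), Spp1 (osteopontin, 6.07) and Tgfb1 (1.09). Of 9 tested counter-receptors of leukocyte integrins 5 rose and none fell, among them Thy1 (log2 0.98), Icam1 (0.88), a ligand of the beta 2 integrins, Vcam1 (0.90), the ligand of alpha 4 integrins, and Icam2 (0.74). Of 24 basement membrane and hemidesmosome partners 12 rose and 2 fell. Those with the smallest p were the collagen IV chains Col4a1 (log2 2.08) and Col4a2 (1.82), Col18a1 (1.98) and Nid1 (0.96), the nidogen that links laminin to collagen IV, and the 2 that fell were Ntn4 and Dst. Of 31 adhesion proteins inside the cell 14 rose and 3 fell. The cytoskeletal protein Zyx rose by 0.70 on the log2 scale, and the kindlins Fermt2 (0.46) and Fermt3 (0.96), which switch integrins on, rose as well, while the tensin Tns4 fell by 0.97.

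At 10 mpk of A1007 few chains were called. Relative to vehicle, 3 of 37 chains fell and none rose (5.75% of all genes were called, 2.91% as lower), and no laminin was among them. An unadjusted p under 0.05 was held by 3 of 11 laminins and by 4087 of all 17928 genes. Of those 3 laminins 2 had lower values and 1, Lamb2, had higher (log2 0.29). Itgam fell by 1.72 on the log2 scale (SE 0.41, adjusted p = 0.0136), running from 1.35 through 2.19 to 10.2 FPKM at 10 mpk. Itgb2 fell by 0.95 (SE 0.26, adjusted p = 0.0285), running from 3.37 through 8.95 to 13.1, and Itga5 by 0.90 (SE 0.26, adjusted p = 0.0339), running from 9.73 through 14.8 to 32.85 FPKM. In all 3 genes the libraries overlapped those of vehicle mice, and 10 mpk replicate 5 was the highest of its group for Itgam and Itga5.

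The calls of Itga5 and Itgb2 depended on single libraries and on the fit, whereas Itgam was called whichever library was left out and was lost in 3 of 30 alternative settings. Without 10 mpk replicate 5, 11 chains were called, 8 lower and 3 higher. Without 10 mpk replicate 7, or without vehicle replicate 5, 1 was called, Itgam. Counts over all genes were not kept for fits that left out a library, so no share stands beside these. With only these 2 groups in the fit no chain was called, and only 4 of all 17928 genes were. In the fit of all TNBS mice 11 chains had an unadjusted p under 0.05, 8 lower and 3 higher (Itga8, Itga11 and Lamb2). Of all genes, 4087 did so in that fit. Of 10 neutrophil markers 5 fell and of 12 macrophage markers 4, and their part was not tested.

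At 30 mpk the fall was broader. Relative to vehicle, 17 of 37 chains fell and none rose, made up of 10 integrins and 7 laminins, where 31.4% of all genes were called and 17.9% as lower. The median log2 fold change was -0.39 over the chains, -0.70 over laminins and -0.02 over all genes. All 30 mpk libraries lay below all vehicle libraries for 4 chains, Itgam, Lama4, Lamb1 and Lamc1, as did 0.563% of all genes. The vehicle libraries serve here and in the comparison with sham, so the 2 comparisons are not independent.

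Itgam ran from 0.98 through 1.25 to 1.77 FPKM at 30 mpk and fell by 2.88 on the log2 scale (SE 0.44, 7.35-fold lower, adjusted p = 1.56e-05). Itgb2 ran from 3.94 through 6.08 to 7.50 FPKM and fell 2.64-fold (adjusted p = 0.000179). Itga5 ran from 8.44 through 12.5 to 21.5 FPKM and fell 2.22-fold (adjusted p = 0.00112). The values of Itgb2 and Itga5 still overlapped the lowest vehicle libraries. Itgb8 ran from 0.43 through 0.69 to 1.11 FPKM, 1.91-fold lower (adjusted p = 0.0024).

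Itgav (6.61 through 7.30 to 9.81 FPKM, 1.51-fold lower), Itgb3 (2.82 through 3.46 to 4.79, 1.54-fold) and Itga2 (3.80 through 6.18 to 8.54, 1.80-fold) fell too, with adjusted p from 8.94e-05 to 0.00044. Itga4, the partner of beta 1 and beta 7, had not been called in vehicle mice yet fell 1.503-fold at 30 mpk, running from 0.63 through 1.18 to 1.40 FPKM against 0.80 through 1.81 to 2.58 in vehicle libraries (adjusted p = 0.00974). Itgb1 fell 1.34-fold (adjusted p = 0.000107) and Itgb5 1.18-fold (adjusted p = 0.00423). Itgal (log2 -0.39, adjusted p = 0.15), Itgb7 (0.14, adjusted p = 0.66) and Itgax (-0.20, adjusted p = 0.38) were not called.

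Among laminins Lamb1 ran from 7.63 through 9.40 to 11.9 FPKM at 30 mpk and fell 1.66-fold (log2 -0.73, SE 0.09, adjusted p = 4.22e-07). Lamc1 ran from 10.3 through 12.6 to 15.3 FPKM and Lama4 from 3.16 through 4.19 to 4.63 FPKM, each 1.71-fold lower (adjusted p = 9.34e-05 and 1.39e-05). In these 3 genes the highest library at 30 mpk was below the lowest of the vehicle group. Lama2 ran from 1.02 through 1.31 to 1.60 FPKM (1.62-fold lower) and Lama5 from 2.13 through 2.71 to 3.27 (1.32-fold), both called. Lama1 fell 3.33-fold, to 0.256 ± 0.0735 FPKM (adjusted p = 2.98e-05). Lama3 ran from 1.74 through 3.61 to 9.72 FPKM and was not called, with a log2 fold change of -0.60 and a 95% interval of -1.32 to 0.11.

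At 90 mpk 16 of 37 chains fell relative to vehicle and none rose, 10 integrins and 6 laminins, where 18.2% of all genes were called and 11.1% as lower. Lamb1 alone was separated from vehicle in every library, as were 0.312% of all genes downward. It ran from 8.23 through 11.1 to 12.6 FPKM and fell 1.51-fold (adjusted p = 1.86e-05). Lamc1 ran from 12.02 through 15.1 to 19.04 FPKM (1.52-fold lower) and Lama4 from 4.15 through 5.04 to 6.20 (1.40-fold).

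Itgam ran from 0.89 through 1.44 to 2.14 FPKM at 90 mpk and fell by 2.86 on the log2 scale (SE 0.44, adjusted p = 3.21e-05), with the highest library above the 2 lowest of the vehicle group. Itga5 ran from 7.75 through 12.7 to 17.4 FPKM, 2.45-fold lower (adjusted p = 0.000557), and Itgb2 from 5.03 through 6.51 to 11.6 FPKM, 2.31-fold lower (adjusted p = 0.00123). Itgb8 ran from 0.42 through 0.64 to 0.86 FPKM, 2.18-fold lower (adjusted p = 0.000655).

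Itgav (6.73 through 8.24 to 9.06 FPKM), Itgb3 (2.86 through 4.005 to 5.22), Itga2 (7.44 through 7.88 to 9.61), Itgb1, Itga3 and Itgb6 were the other integrins called lower at 90 mpk, by 1.22- to 1.49-fold. Of these, the call of Itgb6 was lost in 11 and that of Itga2 in 5 of 30 alternative settings. Lama1 fell 2.97-fold and Lama2 (1.38 through 1.73 to 2.27 FPKM) 1.27-fold, the latter at an adjusted p of 0.0445 that was lost in 18 of 30 alternative settings. Lama5 (2.48 through 3.08 to 3.88 FPKM, adjusted p = 0.071) and Lama3 (2.11 through 3.23 to 8.14 FPKM, adjusted p = 0.0747) were not called.

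Of the 4 lists of partner genes, only the matrix ligands had most of their tested members called lower at both higher doses. Of the 14 matrix ligands 10 were lower at 30 mpk and 10 at 90 mpk and none was higher, with Fn1 lower by 1.15 and 1.25, Fbn1 by 1.45 and 1.19 and Spp1 by 3.88 and 4.30 on the log2 scale. Of the 24 basement membrane partners 10 were lower and 1 higher at 30 mpk, and 7 lower and 2 higher at 90 mpk, with Col4a1 lower by 1.16 and 1.00 and Nid1 by 0.53 and 0.42. Counter-receptors were mostly not called: 1 of 9 was lower at 30 mpk, Icam1 (log2 -0.65), and none at 90 mpk, and 1 was higher at each dose. Of the 31 adhesion proteins 12 were lower and 2 higher at 30 mpk, and 6 lower and 4 higher at 90 mpk.

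Markers of other cells moved in both directions, and their part in the falls of the chains was not tested. Neutrophil markers were lower for 9 of 10 at 30 mpk and 10 of 10 at 90 mpk, with sums of 47.4 to 96.7 and 36.8 to 80.7 CPM. Macrophage markers were lower for 9 and 10 of 12, and fibroblast markers for 6 of 9 at each dose with 1 higher. Of 10 endothelial markers 1 was lower at 30 mpk and 0 were called at 90 mpk. Smooth muscle markers were higher for 5 of 10 and enteric glia markers for 4 of 6 at each of these doses, with none lower. At 30 mpk 3 of 6 B and plasma cell markers and 4 of 12 epithelial markers were higher as well, and at 90 mpk none of either list was called.

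Between 10 and 30 mpk most calls were laminins. Of 37 chains 9 were lower at 30 than at 10 mpk and none higher: 7 of 11 laminins (Lama1, Lama2, Lama4, Lama5, Lamb1, Lamc1 and Lamc3) and 2 of 26 integrins (Itga11 and Itgb5). Of all genes tested 2.01% were called, 1.55% as lower. Whether the share differed between laminins and integrins was not tested. Of 10 alternative settings, 5 lost the call of Itga11, 4 that of Lamc1 and 3 that of Lama1.

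Lamb1 had the smallest p of all 17928 genes in this comparison. It ran from 13.1 through 14.3 to 20.6 FPKM at 10 mpk and from 7.63 through 9.40 to 11.9 at 30 mpk, with no overlap (1.56-fold lower, log2 -0.64, SE 0.09, adjusted p = 8.59e-05). Downward separation of this kind was seen for 0.0892% of all genes.

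Lama2 held rank 5 and Lama4 rank 17 by p. Lama2 ran from 1.06 through 2.37 to 3.21 FPKM at 10 mpk and was 1.702-fold lower at 30 mpk (adjusted p = 0.000689). Lama4 ran from 3.26 through 6.12 to 9.22 FPKM at 10 mpk and was 1.57-fold lower (adjusted p = 0.00239). Lama1 was 2.03-fold lower (adjusted p = 0.0468) and Lamc3, a gamma chain at 0.511 ± 0.133 FPKM at 10 mpk, 1.73-fold lower (adjusted p = 0.0193). Of 9 fibroblast markers 5 were lower at 30 than at 10 mpk and none higher, and of 12 macrophage markers 3, and their part in the laminin values was not tested. Of the basement membrane partners 8 of 24 were lower and none higher.

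Between 90 and 10 mpk, 1 chain was called, Lamb1, 1.42-fold lower at 90 mpk with no overlap (adjusted p = 0.00327, rank 4 by p). Of all genes 0.1% were called, 0.0669% as lower, and 0.0223% were separated downward. Without adjustment, p was under 0.05 for 15 of the 37 chains, among them 9 of 11 laminins, and for 1955 of all 17928 genes. The median log2 fold change was -0.40 over laminins and -0.02 over all genes. Between 90 and 30 mpk edgeR called none of the 37 chains, against 0.368% of all genes. An unadjusted p under 0.05 was held by 6 of the 37 chains and by 3428 of all 17928 genes. DESeq2 and limma also called none. With only these 2 groups in the fit 5 chains were called higher at 90 mpk (Itga11, Itga2, Lama2, Lama4 and Lamc3), and 4 by a rank-sum test. Of all 17928 genes these 2 settings called 3072 and 2763, of which 1074 and 1018 were higher. No order of these doses is therefore read from the set.

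**Figure D5:**
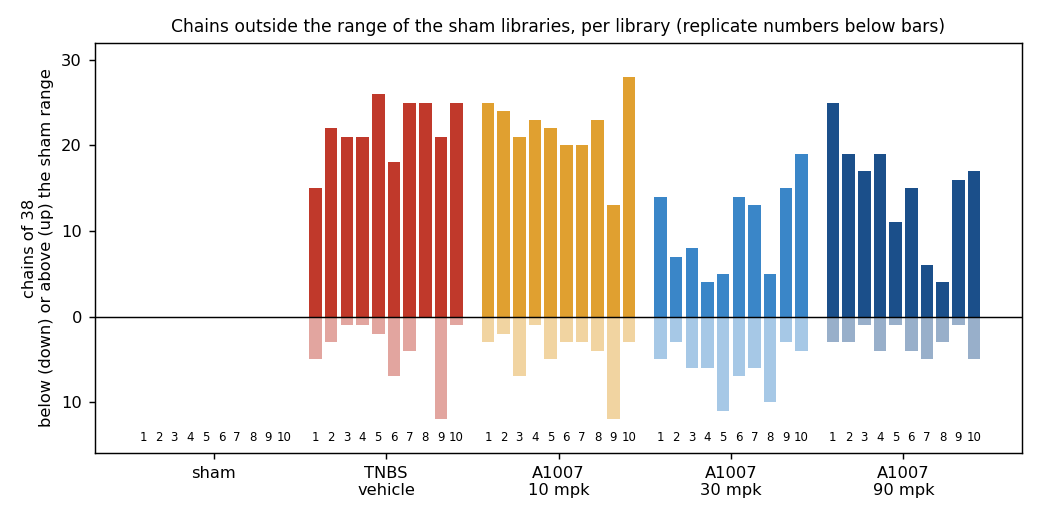
Number of the 38 chains whose FPKM in a library (x axis, by group and replicate number) lay above the highest (upward bars) or below the lowest (downward bars, paler) of the 10 sham libraries. Medians upward were 21.5 in vehicle, 22.5 at 10 mpk, 10.5 at 30 mpk and 16.5 at 90 mpk.

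Many chains were also called against sham in treated mice. At 10 mpk 20 chains were higher and 2 lower than in sham, where 36% of all genes were called, 21.3% as higher and 14.7% as lower. At 30 mpk 12 were higher and 7 lower (59% of all genes called, 30.3% as higher and 28.7% as lower). At 90 mpk 19 were higher and 2 lower (45.2% of all genes, 23.4% as higher and 21.9% as lower). The median log2 fold change over the chains was 0.41, 0.11 and 0.21 in that order. These counts share the sham mice, and the differences between them were not tested as such. At 30 mpk the share of chains called, 51.4%, was below that of all genes, and the 12 of 37 called higher were near the share over all genes. With all 5 groups in 1 fit, 9 chains were higher and 4 lower at 30 mpk, and 13 higher and 1 lower at 90 mpk. Of all 17928 genes that fit called 9008 at 30 mpk, 4726 of them higher, and 4399 at 90 mpk, 2279 of them higher. With the pair alone 10577 and 8111 genes were called.

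Itga5 was still 2.06-, 1.72- and 1.57-fold above sham at 10, 30 and 90 mpk, and Itgb2 1.93-, 1.40- and 1.61-fold. Itgam was 3.11-, 1.39- and 1.41-fold above sham, with adjusted p from 0.000448 to 0.0044. Lamb1 was 1.896-, 1.203- and 1.33-fold above sham, and Lamc1 1.702-, 1.13- and 1.28-fold. Lama1 stayed 4.64-, 2.27- and 2.56-fold above sham. In each of these 6 genes every dose was called, but with all 5 groups in 1 fit Itgam was called neither at 30 nor at 90 mpk, and Itgb2 and Lamc1 were not called at 30 mpk. The call of Lamc1 at 30 mpk was lost in 4 of 9 alternative settings.

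Itgb7 and Itga2b were called higher than sham at every dose and against vehicle at none. Itga2b averaged 0.599 ± 0.223, 0.557 ± 0.0855 and 0.504 ± 0.0906 FPKM at 10, 30 and 90 mpk, or 1.77-, 1.67- and 1.46-fold above sham. Itgb7 ran from 2.04 through 5.13 to 9.83 FPKM at 10 mpk, from 2.46 through 5 to 5.69 at 30 mpk and from 2.7 through 4.65 to 9.71 at 90 mpk, against a sham median of 2.44 FPKM. It was 1.88-, 1.69- and 1.84-fold above sham in that order (adjusted p = 0.00288, 0.000241 and 0.00107). T and NK cell markers were called higher than sham for 6, 10 and 11 of 12 at the 3 doses. Of all genes 21.3%, 30.3% and 23.4% were called higher. The median log2 fold change of these markers was alike at the 3 doses (0.95, 0.91 and 0.92), so the counts show no rise with dose. Their summed levels were 17.6 to 119 CPM over the treated libraries against 17.9 to 49.3 in sham, and their part in Itgb7 was not tested.

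Itga6 stayed low. It averaged 23.0 ± 5.16, 20.9 ± 2.56 and 22.5 ± 1.83 FPKM at 10, 30 and 90 mpk against 29.3 ± 1.86 in sham (n = 10 each). Every 30 and 90 mpk library was below every sham library, with log2 fold changes of -0.47 and -0.41 (adjusted p = 1.36e-06 and 1.99e-06), where 4.81% and 1.43% of all genes were separated downward. Against vehicle it was called at no dose. At 30 mpk Itga2, Itga4, Itga8, Itga11, Itgb2l and Lamc3 were also lower than sham, by 1.199- to 1.62-fold. With all 5 groups in 1 fit Itga4, Itga8 and Itga11 were not called there, and Itga8 lost its call in 3 of 9 alternative settings. Of 12 epithelial markers 2 were called lower than sham at 10 mpk, 6 at 30 mpk and 7 at 90 mpk, with 4 higher at 30 mpk and 2 at 90 mpk. Of all genes 14.7%, 28.7% and 21.9% were called lower in that order. The median log2 fold change of these markers was -0.14, -0.22 and -0.21, so no order of the doses is read from the counts.

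Other chains differed from sham at some doses. Itga9, which binds tenascin and osteopontin, was 1.34- and 1.23-fold above sham at 10 and 90 mpk, and the collagen receptor chain Itga1 1.16-fold at 90 mpk. At 90 mpk each of these 2 calls was lost in 2 of 8 alternative settings. Itgb2l was 1.39-fold below sham at 10 mpk, a call lost in 4 of 9 alternative settings. Itga11, a collagen receptor chain of fibroblasts, averaged 0.71 ± 0.269 FPKM at 10 mpk, 0.404 ± 0.108 at 30 mpk and 0.634 ± 0.109 at 90 mpk, and Itga8, of smooth muscle and fibroblasts, between 1.21 and 1.71 FPKM over the groups.

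Some chains passed no test against vehicle or sham at any dose and none in vehicle mice. Itga7, of muscle, averaged between 3.88 and 4.39 FPKM over the groups, Itgax between 2.50 and 2.99, Itgae between 1.96 and 2.56, Itgb4 between 15.6 and 18.7 and Lamb3 between 15.2 and 18.8. Itga10, of cartilage, averaged between 0.239 and 0.306 FPKM and was not called either. Lamb2, the beta 2 chain of vessel and muscle laminins, was not called in vehicle mice but was higher than sham at 10 and 90 mpk, by 1.202- and 1.18-fold (adjusted p = 0.00558 and 0.025), the latter lost in 3 of 8 alternative settings. Itgb3bp, the gene that is no chain, was 1.31-fold higher at 30 mpk than in vehicle mice (adjusted p = 0.0172) and was not called at the other doses against vehicle. It overlaps Pgm1 on the opposite strand, which had 7.9 times its counts, so its value is uncertain if counting ignored the strand.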

How the data were processed

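Poly(A) RNA of 50 colon libraries was measured. In 1 table the authors deposited read counts that were not normalized, beside FPKM values, exon lengths and GRCm39 coordinates. The submitters' processing notes name cutadapt 1.9.1, HISAT2 2.2.1, HTSeq 0.6.1 and DESeq2 without their roles. The deposited FPKM values matched counts, exon lengths and totals within 1% for 99.997% of values with at least 500 counts. Counts were tested with edgeR 4.0.16 in R 4.3.3 (quasi-likelihood, robust, TMM, filterByExpr with a count minimum of 10), leaving 17928 genes. Doses and vehicle were each compared with sham on the 20 libraries of the pair, and TNBS groups with each other in 1 fit of 40. The method was tested on simulated data. Limma 3.58.1 and DESeq2 1.42.0 served as alternatives. Genes were called at an adjusted p under 0.05, and every adjusted p is from edgeR unless another tool is named. Medians and ranges in FPKM are given for chains called in vehicle against sham or a dose against vehicle with at least a 1.5-fold change and 1 FPKM, and for other chains group means. From each list up to 4 called genes with the smallest p in vehicle against sham are named. The members and lists were chosen with earlier results of these data known. Replicate numbers did not pair libraries, and no 2 libraries of the same group were alike within sampling noise. Values of 1 chain that enters the counts are not reported here.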

Additional observations from a re-analysis of the deposited data

Results flagged for a closer look

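Over the 17 chains past the fold and FPKM limits of the methods, 85 groups of 10 libraries were searched for a library far from the rest. Dixon's ratio was used at its 95% critical value, which chance passes in about 1 in 20 groups of independent, normally distributed values. The 17 chains share the same 50 libraries and FPKM was not transformed, so the number of groups found cannot be set against that rate. The critical value was passed in 9 groups, each time by the highest library. Vehicle replicate 5 was so for Itgb2, at 47.49 FPKM, and for Lama4, at 10.68 FPKM. Replicate 5 of the 10 mpk group was so for Itgam, at 10.16 FPKM, and for Itgb8, at 2.56 FPKM, and this library also held the highest neutrophil marker sum of its group, 744 CPM. Lamb1 reached 20.57 FPKM in 10 mpk replicate 1, whose fibroblast marker sum of 10400 CPM was the highest of its group. Itgb7 stood out in sham replicate 3, at 4.62 FPKM, and in 90 mpk replicate 9, at 9.71 FPKM. The remaining libraries were 90 mpk replicate 8 for Itga2, at 9.61 FPKM, and 90 mpk replicate 6 for Lama3, at 8.14 FPKM. What sets these libraries apart was not tested.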

How the results depend on the processing

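Of 2361 recomputed values of called chains, 2214 kept their direction and their call, 147 lost the call and 0 changed sign. Of 510 such values at 30 mpk against vehicle, 508 were kept. For 10 mpk against vehicle, 1 chain was called with limma on FPKM and 1 with no filter on low counts, and 0 with only the 2 groups in the fit, 0 with quantile normalization in limma-voom and 0 with a rank-sum test, instead of 3. Over all genes these settings called 599, 545, 4, 600 and 0 in that order, against 1030 in the main fit. The rank-sum test called no gene at all, so its 0 says nothing about the chains. Leaving out each library in turn gave 1 to 11 chains at 10 mpk against vehicle. The same gave 17 to 19 at 30 mpk, 14 to 19 at 90 mpk and 21 to 24 in vehicle against sham. Counts over all genes were not kept for these fits. For 30 against 10 mpk, 5 chains were called with no filter, where 138 of all 38081 genes were called. For 90 against 30 mpk, 5 were called with only the 2 groups and 4 with a rank-sum test, instead of 0. Those settings called 3072 and 2763 of all genes, instead of 66. The cause of these moves was not tested. Without the 2 libraries low in Xist, an alternative chosen after seeing the data, the counts were 2 at 10 mpk, 18 at 30 mpk and 17 at 90 mpk against vehicle, and 11 for 30 against 10 mpk. Over all genes they were 580, 6309, 3320 and 870 in that order. A replicate block gave 20 chains in vehicle against sham and 3, 17 and 16 at the 3 doses against vehicle. Over all genes the block gave 4380, 922, 6022 and 3186 in that order. Libraries share only a number: in none of the 10 comparisons did every same-numbered pair correlate over 0.1. Correlations ran from -0.138 to 0.234 in vehicle and sham (1 of 10 pairs over 0.1) and from -0.281 to 0.374 in 10 mpk and vehicle (6 of 10), and the highest, 0.496, was in 30 and 10 mpk. At most 3 of 10 libraries in a comparison correlated best with their own number. Depth limits the precision of chains with few reads, such as Itga10 and Lamc3, with group means of 21.2 to 27.5 and 29.5 to 53.4 counts.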
